A study of Mus musculus with 4 samples.

Results

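The carbonic anhydrases described here are 10 genes, Car1, Car2, Car3, Car4, Car5a, Car8, Car9, Car12, Car13 and Car14. They were taken by name, through their Ensembl identifiers, from a table of 41128 genes, and all 10 were present. Gene expression was measured by RNA sequencing in liver cells of C57BL/6 mice with experimental alcoholic hepatitis. All animals had free access to a high cholesterol fat diet that supplied 40% of calories, received the other 60% as an alcohol liquid diet through a gastric tube, and were given a weekly binge, so no library came from an untreated liver. The livers were digested with collagenase, most hepatocytes were removed by slow centrifugation, and CD45+ leukocytes were removed with magnetic beads, which left the presorted CD45- cells. Sorting of these cells by fluorescence on Prom1 (prominin-1), CD49f (integrin alpha 6) and CD45 gave 3 populations, which the study numbered R6 (Prom1+CD49f+CD45-), R5 (Prom1-CD49f+CD45-) and R8 (Prom1+CD49f+CD45+), and these numbers are used below. Each of the 4 populations had 1 library, made from the pooled RNA of 2 mice.

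Carbonic anhydrases are zinc enzymes that convert carbon dioxide and water into bicarbonate and a proton, and back. Members differ in where they work: some are cytosolic, some mitochondrial, and some are held on the outer face of the plasma membrane. In the liver the cytosolic form in bile duct cells supplies bicarbonate for secretion into bile, and the mitochondrial form of hepatocytes supplies bicarbonate to the enzymes that start urea and glucose synthesis.

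With 1 library per population there was no replicate check of any difference and no test, p-value or standard error. Levels are CPM (counts relative to library size) after TMM, a trimmed-mean scaling between libraries, and are called scaled CPM, each with an exact 95% Poisson interval, and ratios have an exact 95% conditional binomial interval. A ratio whose interval lies entirely beyond 2-fold is termed called, in either direction. These intervals cover counting error only, and reads amplified without molecular identifiers are not independent molecules. In these bulk libraries, fewer cells of a type and less RNA per cell cannot be told apart.

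Summed counts were 30239681 in R6, 14670414 in R5, 23070164 in the library labelled R8 and 52294143 in the presorted CD45- library. In the library labelled R8, Prom1 was at 11.4 scaled CPM and Ptprc, the gene of CD45, at 14.5, against 67.1 and 21.0 in the presorted library, and Prom1 was also 31.0-fold higher (27.6 to 35.0) in R6 than in it, which goes against its gate. Ptprc was 4.04-fold higher (3.0 to 5.52) there than in R5, and Itga6, the gene of CD49f, was highest there at 127. Because of Prom1, "labelled R8" is written wherever this library is used. The presorted library had the highest Ptprc level of all, and the highest leukocyte marker sums given below, which goes against its CD45- label. Its column was named only CD45. Summed cholangiocyte markers (20 genes) were 30659, 11728, 609 and 5204 scaled CPM in the order above. Summed hepatocyte markers (18 genes) were 12861, 9233, 1039 and 46961. The hepatocyte sums put R6 above R5, but 9 of 18 hepatocyte markers were called lower in R6 than in R5 and 3 higher. Over all genes, 12.7% were called lower and 15.5% higher. The median log2 ratio of the hepatocyte markers, R6 to R5, was -1.06. Summed endothelial markers (18 genes) were 505, 10324, 17322 and 13545. Among leukocytes, summed Kupffer cell and macrophage markers (14 genes) were at 93.5, 159, 229 and 1143, neutrophil markers (10 genes) at 43.6, 98.4, 899 and 1618, and lymphocyte markers (12 genes) at 11.3, 7.49, 43.0 and 46.8. The part of these cell types in the values below was not tested. Chemosensory receptor genes (1707 genes), which liver is not known to use, served as a measure of background. At least 1 count was found for 69.0%, 27.5%, 69.0% and 13.1% of them, and percentile 95 of their level was 0.846, 0.353, 1.09 and 0.0450 scaled CPM.

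Sequence before the RefSeq start site is shown for 3 of the genes called lower than presorted in every sorted library. They are shown because they share that pattern. Car5a codes for a mitochondrial enzyme and the others for enzymes of the cell surface. The RefSeq promoter table (GRCm38.p6) matched 5 of the 10 genes, Car4, Car5a, Car9, Car12 and Car14. Sequences run 5′ to 3′ on the strand of the gene and end at the base before the RefSeq start site. Capitals mark matches, on either strand, to any of 4 motifs. ACGTG is the core bound by hypoxia-inducible factors. TATAAA is the TATA box. CCAAT is bound by nuclear factor Y. GGGCGG is the GC box of Sp factors. No pair of these motifs overlapped in the sequences shown. Car5a lies on the minus strand at chr8:121944913-121945162, Car14 on the minus strand at chr3:95904686-95904935, and the Car9 stretch on the plus strand at chr4:43506996-43507025. The gene places given below come from another annotation, GENCODE, in which Car9 begins at 43506966. The printed Car9 stretch therefore lies within the gene as placed there. In that annotation Car14 begins at 95904691, so the last bases printed for Car14, with most of its ACGTG match, also lie within the gene.
Car5a: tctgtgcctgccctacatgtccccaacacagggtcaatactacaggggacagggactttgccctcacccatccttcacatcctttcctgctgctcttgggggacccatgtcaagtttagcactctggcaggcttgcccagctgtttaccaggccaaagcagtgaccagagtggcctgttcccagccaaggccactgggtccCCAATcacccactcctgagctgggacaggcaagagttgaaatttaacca
Car14: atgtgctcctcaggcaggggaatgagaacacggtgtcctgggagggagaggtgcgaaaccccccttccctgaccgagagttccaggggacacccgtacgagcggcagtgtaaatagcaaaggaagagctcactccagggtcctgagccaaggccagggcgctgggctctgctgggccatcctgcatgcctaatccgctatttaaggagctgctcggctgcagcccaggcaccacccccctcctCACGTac
Car9: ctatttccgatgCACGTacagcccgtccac
In the 250 bases before its RefSeq start, Car14 had 1 ACGTG match, on the strand opposite the gene, beginning at -7. Car9 had 1 ACGTG match, also on the opposite strand, beginning at -18, and in the part not printed a CCAAT match beginning at -165. Car5a had a CCAAT match beginning at -49 and none of the other motifs. Over 32536 windows of the same length, 16.7% held ACGTG and 33.8% held CCAAT. The share was 12.3% for TATAAA and 33.0% for GGGCGG. A match is a description of letters and not a site of binding.

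**Figure D1:**
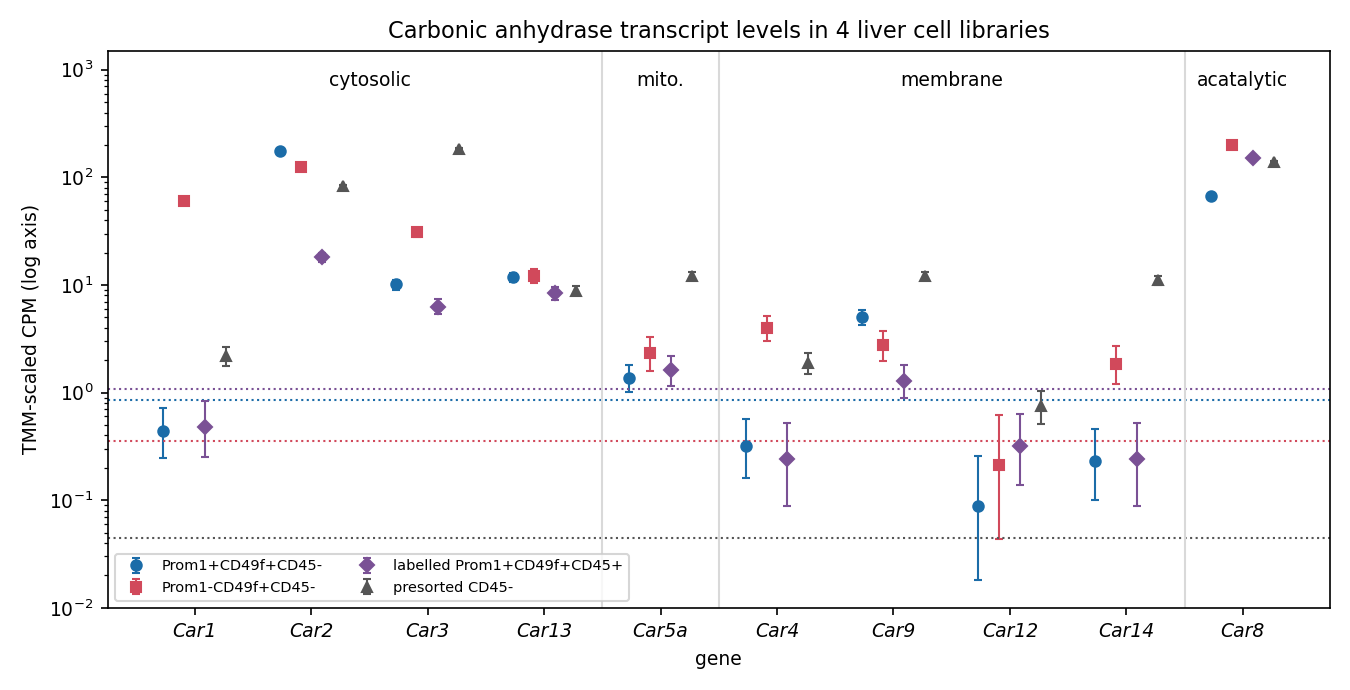
Levels of the 10 genes (TMM-scaled CPM, log axis) in the 4 libraries, drawn under their gates (R6 Prom1+CD49f+CD45-, R5 Prom1-CD49f+CD45-, R8 labelled Prom1+CD49f+CD45+), grouped by where the protein works; points are single libraries, bars are exact 95% Poisson intervals, and dotted lines are percentile 95 of the chemosensory receptor genes in the library of that colour. Car1 stands at 60.5 in the R5 library and at 2.18 or below in the others, Car3 is highest in the presorted library at 185, and Car13 stays between 8.42 and 12.1.

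The make-up of the carbonic anhydrases differed between libraries when levels were compared between genes per kilobase of exon. Car2 led in the R6 library with 72.1 scaled CPM per kilobase, which was 70.7% of the sum over the 10 genes. Car8 led in the library labelled R8 with 38.9 per kilobase, or 71.2% of its sum, and Car2 made up 13.6% there. In the presorted library Car3 led with 64.6 per kilobase and 40.4%, ahead of Car8 with 22.5% and Car2 with 21.2%. In the R5 library Car8, Car2 and Car1 were close, with 29.7%, 29.6% and 28.1%, at 51.3, 51.0 and 48.5 per kilobase. This closeness depended on the length used. Per kilobase of the longest transcript, Car2 led there with 69.1, ahead of Car8 with 51.3 and Car1 with 50.7. The summed level per kilobase of exon was 102 in R6, 173 in R5, 54.6 in the library labelled R8 and 160 in presorted cells. Without division by length, Car2 led in R6 at 175 scaled CPM. Car8 led in R5 at 198, ahead of Car2 at 124, and in the library labelled R8 at 150. Car3 led in presorted cells at 185. Per kilobase values assume reads along the whole transcript, and the labels leave in doubt whether the libraries were of that kind. Car12 had the lowest level per kilobase in every library, at 0.0115, 0.0279, 0.0424 and 0.0978 in the same order.

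**Figure D2:**
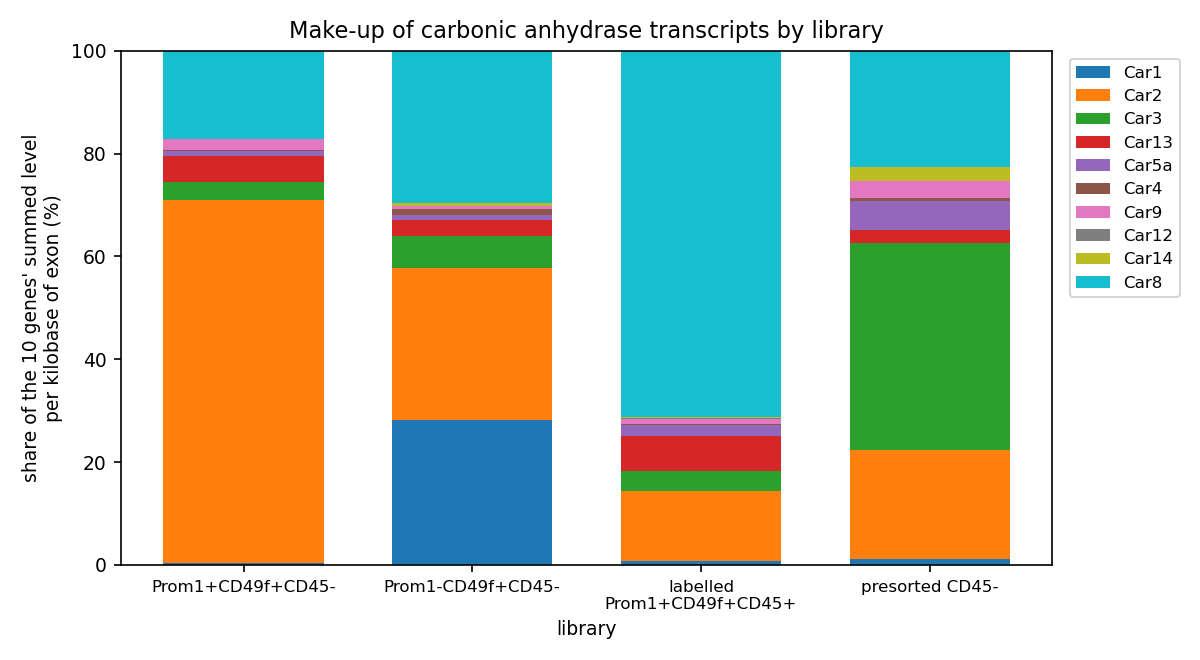
Share of each gene (%) in the summed level of the 10 carbonic anhydrases per kilobase of exon, for each of the 4 libraries, with 1 bar per library. Car2 fills 70.7% of the R6 bar, Car8 fills 71.2% of the bar labelled R8, and Car1 is a large share (28.1%) in the R5 bar.

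The 4 cytosolic genes lie next to each other on chromosome 3 (mm10), in the order Car13 (14641727 to 14663002, plus strand), Car1 (14766216 to 14808368, minus strand), Car3 (14863512 to 14872523, plus strand) and Car2 (14886273 to 14900770, plus strand). No other protein-coding gene was annotated between them, and the gaps between neighbours were 103213, 55143 and 13749 bp. The 4 neighbours had 4 different profiles: Car13 was near level, Car1 was high in 1 sorted library, Car3 was highest before sorting, and Car2 was highest in R6.

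Car2 (ENSMUSG00000027562) encodes the fast cytosolic enzyme of bile duct epithelium, osteoclasts and red cells. It was at 175 (170 to 179) scaled CPM in R6 cells, 124 (118 to 129) in R5 cells, 82.2 (79.6 to 84.9) in presorted cells and 18.0 (16.4 to 19.8) in the library labelled R8. Each step in that order was larger than counting error. Against presorted cells Car2 was 2.12-fold higher (2.04 to 2.21) in R6 cells, which was called. That call was lost when a trend of the ratios with gene length was removed, where the log2 ratio was 0.96, and when TMM was computed over all genes. The difference between the R6 and R5 libraries, 1.41-fold (1.34 to 1.49), was not called. The summed cholangiocyte markers differed more between this pair of libraries, at 30659 against 11728. Spp1 made up most of both sums, at 19684 and 8188. Of the 20 markers, 14 were called higher in R6 than in R5 and 0 lower, against 15.5% and 12.7% of all genes. Krt7, at 218 and 152, and Krt19, at 301 and 209, were among those not called. Car2 was 9.67-fold higher (8.79 to 10.7) in R6 cells than in the library labelled R8.

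Car1 (ENSMUSG00000027556), a cytosolic form best known from red cells and colon, was high in 1 of the 4 libraries. It had 857 counts in R5 cells, 60.5 (56.5 to 64.7) scaled CPM. The presorted library had 97 counts, 2.18 (1.77 to 2.66) scaled CPM. In R6 cells and in the library labelled R8 it had 15 and 12 counts, or 0.438 and 0.483 scaled CPM, which is below percentile 95 of the chemosensory genes in both. Car1 was thus 27.7-fold higher (22.5 to 34.6) in R5 than in presorted cells and 138-fold lower (83.4 to 248) in R6 than in R5 cells. With a trend of the ratios with gene length removed, the log2 ratio of R5 to presorted cells was 3.66 in place of 4.79, and still called. Between the 2 low libraries the ratio was 1.10 (0.472 to 2.53), so their order is not resolved.

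The red cell markers as a list were lower in R5 than in presorted cells, where Car1 was higher. Hba-a2, an alpha globin gene, was at 2.19 scaled CPM in R5 and 89.2 in presorted cells, 40.7-fold lower (28.6 to 60.0). The summed level of the 13 erythroid markers found was 62.3 in R5 against 350 in presorted cells, with 0 of 13 called higher and 7 lower, and Slc4a1, the red cell anion exchanger, was at 0 counts in R5 cells, against a floor of 3 counts, or 0.212 scaled CPM. Between R6 and R5, 4 of 13 were called lower in R6 (Hba-a2, Hbb-bs, Hbb-bt and Klf1) and 2 higher, and Klf1, a red cell transcription factor, was highest in R5 at 2.68 scaled CPM, as Car1 was. Some other marker lists had higher sums in R5 than in presorted cells. Summed cholangiocyte markers were 11728 against 5204, with 9 of 20 called higher and 1 lower. Summed stellate cell, fibroblast and mesothelial markers were 2666 against 1358 in presorted cells, with 8 of 18 called higher and 6 lower, and summed platelet markers were 55.4 against 27.7, with 7 of 10 called higher. Endothelial markers were split, with 7 of 18 called higher and 5 lower, and their sum was lower in R5, at 10324 against 13545. Over all genes, 9.77% were called higher and 14.1% lower in R5 against presorted cells. In R6 against R5 cells these shares were 15.5% and 12.7%. The part of the cell types of these lists in the Car1 value was not tested.

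Of 12837 genes ranked, those whose centred log2 profile over the 4 libraries was nearest to that of Car1 were Tmem100, Stmn2 and Mmrn1, with root mean square differences of 0.309, 0.397 and 0.443. Mmrn1, which encodes multimerin 1 of platelets and endothelium, was at 139 scaled CPM in R5 cells and 12.2 in presorted cells. Tmem100, a membrane protein gene of endothelium, was at 33.3 and 1.94. Few genes come near this profile: none was within 0.25. Car1 shared 13.4% of its 50-base stretches with the unprocessed pseudogene Gm5843, which had 4, 2, 1 and 0 counts in the order R6, R5, labelled R8 and presorted.

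Car3 (ENSMUSG00000027559) encodes a cytosolic form of low activity that is abundant in hepatocytes, muscle and fat. It was the member with the most counts in any library, 8223 in presorted cells, at 185 (181 to 189) scaled CPM. The level was 30.9 in R5 cells, 10.1 in R6 cells and 6.28 in the library labelled R8. All 3 sorted libraries were far below the presorted one, and their own order was also larger than counting error. Car3 was 6.00-fold lower (5.44 to 6.62) in R5, 18.4-fold lower (16.5 to 20.5) in R6 and 29.4-fold lower (25.1 to 34.7) in the library labelled R8 than in presorted cells. Hepatocyte markers moved in the same direction, with 18 of 18, 15 of 18 and 18 of 18 called lower in these libraries. Over all genes, 14.1%, 15.6% and 12.1% were called lower. The part of hepatocytes in the Car3 values was not tested. Of 12 markers of fat and muscle, Adipoq, Plin1 and Ckm had at most 8 counts in any library. Fabp4, which marks fat and also endothelium, was at 4.61, 949, 264 and 192 scaled CPM in R6, R5, labelled R8 and presorted, which was nearly all of the summed level of that list. The nearest profiles were those of Cth, Bbox1 and Mup19 (root mean square differences 0.0584, 0.0772 and 0.0926), genes expressed by hepatocytes.

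Car13 (ENSMUSG00000027555), a broadly expressed cytosolic form, was the most even of the 10 genes. Its level was 11.8 scaled CPM in R6, 12.1 in R5, 8.42 in the library labelled R8 and 8.84 in presorted cells. It was called in none of the 6 comparisons between libraries. Its widest ratio was 1.44 (1.17 to 1.77), between the R5 library and the library labelled R8, while the ratio between the R5 and R6 libraries was 1.03 (0.859 to 1.24).

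Car5a (ENSMUSG00000025317; chromosome 8, 121916126 to 121944904, minus strand) encodes the mitochondrial form of hepatocytes, whose promoter is printed above. It had 543 counts in presorted cells, 12.2 scaled CPM, and 47, 33 and 40 counts in the R6, R5 and labelled R8 libraries, 1.37, 2.33 and 1.61 scaled CPM. Neighbours in the order of the sorted libraries did not differ beyond counting error, while the ratio of the lowest to the highest of them, R6 to R5, was 0.588 (0.369 to 0.948), not called. Against presorted cells Car5a was 8.91-fold (6.61 to 12.3), 5.24-fold (3.69 to 7.69) and 7.58-fold (5.50 to 10.7) lower, in that order. With the length trend removed, the log2 ratio of R5 to presorted cells was -3.54 in place of -2.39. The profiles nearest to Car5a were those of Gnat1, Kyat3 and Mreg (0.0221, 0.0799 and 0.0836).

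The enzymes that fix bicarbonate or follow in the urea cycle (16 genes) included many that were called lower after sorting. In R6 cells 9 of 16 were called lower than in presorted cells and 0 higher (15.6% and 27.6% of all genes), in R5 cells 10 and 0 (14.1% and 9.77%), and in the library labelled R8 9 and 0 (12.1% and 23.8%). Others were not called, such as Mccc2, a subunit of a carboxylase of leucine breakdown, at 51.4 in R6 and 36.8 in presorted cells. Cps1, the mitochondrial enzyme that starts the urea cycle with bicarbonate, was at 374 scaled CPM in presorted cells and at 4.0, 12.1 and 4.71 in the sorted libraries. Pcx, the pyruvate carboxylase of glucose synthesis, was at 221 and at 12.6, 10.0 and 6.81. Glul, the glutamine synthetase of hepatocytes around the central vein, was at 354 in R5 cells against 211 in presorted cells, 1.68-fold higher (1.62 to 1.74) and not called. The other mitochondrial form, Car5b, which is found outside hepatocytes too, had another order: it was at 7.50, 16.9 and 13.8 in the sorted libraries and 4.70 in presorted cells, and was called higher in R5 cells, 3.59-fold (2.97 to 4.34), and in the library labelled R8, 2.93-fold (2.46 to 3.50).

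Among the membrane forms, Car14 (ENSMUSG00000038526; chromosome 3, 95897768 to 95904691, minus strand) is the transmembrane enzyme of the hepatocyte surface. It had 487 counts in presorted cells, 11.0 scaled CPM, and 26 in R5 cells, 1.84 scaled CPM. The R6 library had 8 counts and the library labelled R8 6, at 0.233 and 0.242 scaled CPM, both under percentile 95 of the chemosensory genes. Car14 was 47.0-fold lower (23.6 to 109) in R6 and 5.97-fold lower (4.02 to 9.23) in R5 than in presorted cells. Its exons share 445 bases, 17.5% of its exon length, with Aph1a on the opposite strand, and the sources used here do not say whether strand was used in counting. Aph1a had 1847 counts in the R6 library, where Car14 had 8. The profiles nearest to Car14 were those of Avpr1a, Adh4 and Hapln4 (0.0596, 0.0632 and 0.0855). Avpr1a, a vasopressin receptor gene, and Adh4, an alcohol dehydrogenase gene, are expressed by hepatocytes.

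Car9 (ENSMUSG00000028463; chromosome 4, 43506966 to 43513729, plus strand) encodes a transmembrane enzyme induced by low oxygen and present in normal bile duct and stomach epithelium. It was at 12.2 scaled CPM in presorted cells (541 counts), 4.99 in R6 (171 counts), 2.75 in R5 (39 counts) and 1.29 in the library labelled R8 (32 counts). Each step was larger than counting error. The presorted library was the highest for Car9, and summed cholangiocyte markers were highest in the R6 library. The part of bile duct cells in the Car9 values was not tested. Car9 was 2.44-fold lower (2.05 to 2.92) in R6 than in presorted cells, a call that was lost when libraries were scaled by their summed counts, with a log2 ratio of -0.87. It was 3.87-fold higher (2.64 to 5.84) in R6 cells than in the library labelled R8, and 1.81-fold higher (1.27 to 2.64) than in R5 cells, not called. The Car9 level in the library labelled R8, 1.29, was just above percentile 95 of the chemosensory genes there, 1.09. The antisense gene Gm12454 shares 214 bases of Car9 exon and had 46, 7, 7 and 19 counts in R6, R5, labelled R8 and presorted cells.

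Genes known to be induced by low oxygen (25 genes) gave no single direction. In R6 against presorted cells 2 were called higher and 8 lower, against 27.6% and 15.6% of all genes. Vegfa, an endothelial growth factor gene, was at 272 scaled CPM against 52.1, 5.22-fold higher (4.98 to 5.46), and Slc2a1, a glucose transporter gene, at 53.6 against 22.6. Among those called lower were the glycolytic genes Ldha, at 192 against 708, and Pgk1, at 76.5 against 194. Car9 was called lower in R6 as well, a call lost with summed counts as the scale, while Vegfa and Slc2a1 were called higher. The part of low oxygen in the Car9 values was not tested. In the library labelled R8, 0 of 25 were called higher and 7 lower (23.8% and 12.1% of all genes), with Vegfa and Slc2a1 among them.

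Car4 (ENSMUSG00000000805; chromosome 11, 84957786 to 84966044, plus strand) encodes a form anchored to the outer membrane by a lipid and is known from capillary endothelium. Counts were low: 56 in R5 cells (3.96 scaled CPM), 83 in presorted cells (1.87), 11 in R6 cells (0.321) and 6 in the library labelled R8 (0.242). Its order was that of Car1, with the R5 library highest and the lowest 2 libraries not resolved from each other, at a ratio of 1.33 (0.450 to 4.37). Car4 was 12.3-fold lower (6.39 to 26.1) in R6 than in R5 cells. The 2.12-fold difference (1.48 to 3.01) between R5 and presorted cells was not called. With the authors' normalized values it was called, at a log2 ratio of 1.46, and with the length trend removed the log2 ratio was 0.39 in place of 1.08. Endothelial markers were split: between the library labelled R8 and R5, 8 of 18 were called higher and 7 lower. Over all genes, 17.7% were called higher and 13.0% lower. Kdr and Stab2 were at 3176 and 3627 scaled CPM in the library labelled R8 and at 315 and 358 in R5, while Vwf and Plvap were at 65.1 and 438 there and at 618 and 1548 in R5. Their part in the Car4 value was not tested.

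Car12 (ENSMUSG00000032373; chromosome 9, 66713686 to 66766845, plus strand), a transmembrane form known from kidney and colon, had 33 counts in presorted cells, 0.743 scaled CPM, and 3, 3 and 8 counts in the R6, R5 and labelled R8 libraries. The levels of all 3 sorted libraries, 0.0875, 0.212 and 0.322, were under percentile 95 of the chemosensory genes. The ratio of presorted to R6 cells was 8.48 with an interval from 2.66 to 43.2, and this call was lost when libraries were scaled by their summed counts.

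Car8 (ENSMUSG00000041261; chromosome 4, 8143362 to 8239041, minus strand) encodes a family member without enzyme activity that binds the inositol trisphosphate receptor. It was the only member above 60 scaled CPM in all 4 libraries, with 198 in R5 cells, 150 in the library labelled R8, 139 in presorted cells and 67.0 in R6 cells. The R6 library was the low one, and the others lay within 1.42-fold of each other. Car8 was 2.95-fold lower (2.79 to 3.12) in R6 than in R5 cells and 2.24-fold lower (2.13 to 2.36) than in the library labelled R8. Against presorted cells it was 2.07-fold lower (1.98 to 2.18), just short of a call, and it was called with DESeq2 size factors and with TMM over all genes. Car2 and Car8 thus had opposite places in the R6 library, Car2 at its highest and Car8 at its lowest. The profiles nearest to Car8 were those of Slc39a1, Sept7 and Gstk1 (0.0571, 0.058 and 0.0609). For Car2 the nearest were Setd6, Gipc2 and Dbi (0.114, 0.116 and 0.129). Those for Car9 were Kynu, Cat and Tst (0.0642, 0.0749 and 0.0791), and those for Car13 were Kctd13, Hypk and Supt3 (0.0357, 0.0359 and 0.0361).

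Counted over the 10 genes, R6 against R5 cells gave 0 called higher and 5 called lower (Car1, Car3, Car4, Car8 and Car14), where 28.2% of 21640 genes were called, 15.5% higher and 12.7% lower. The median log2 ratio of the 10 genes was -1.42, against 0.29 over all genes compared. Car4 and Car14 were at background level in the lower of these libraries, as was Car1.

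Against presorted cells, R6 cells gave 1 called higher (Car2) and 7 called lower (all but Car8 and Car13 of the rest), where 43.2% of genes were called, 27.6% higher and 15.6% lower. The median log2 ratio was -2.43, against 0.20 over all genes. Car12, among the 7, reached 10 counts in the presorted library alone, so it could not have been called higher. It is also part of the medians. R5 cells gave 1 called higher (Car1) and 4 lower (Car3, Car5a, Car9 and Car14), where 23.9% of genes were called, 9.77% higher and 14.1% lower, with medians of -0.68 and 0.24. The library labelled R8 gave 0 higher and 7 lower (Car1, Car2, Car3, Car4, Car5a, Car9 and Car14), where 35.9% of genes were called, 23.8% higher and 12.1% lower, with medians of -2.56 and 0.11. These comparisons share the presorted library, so their directions are not independent of each other.

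**Figure D3:**
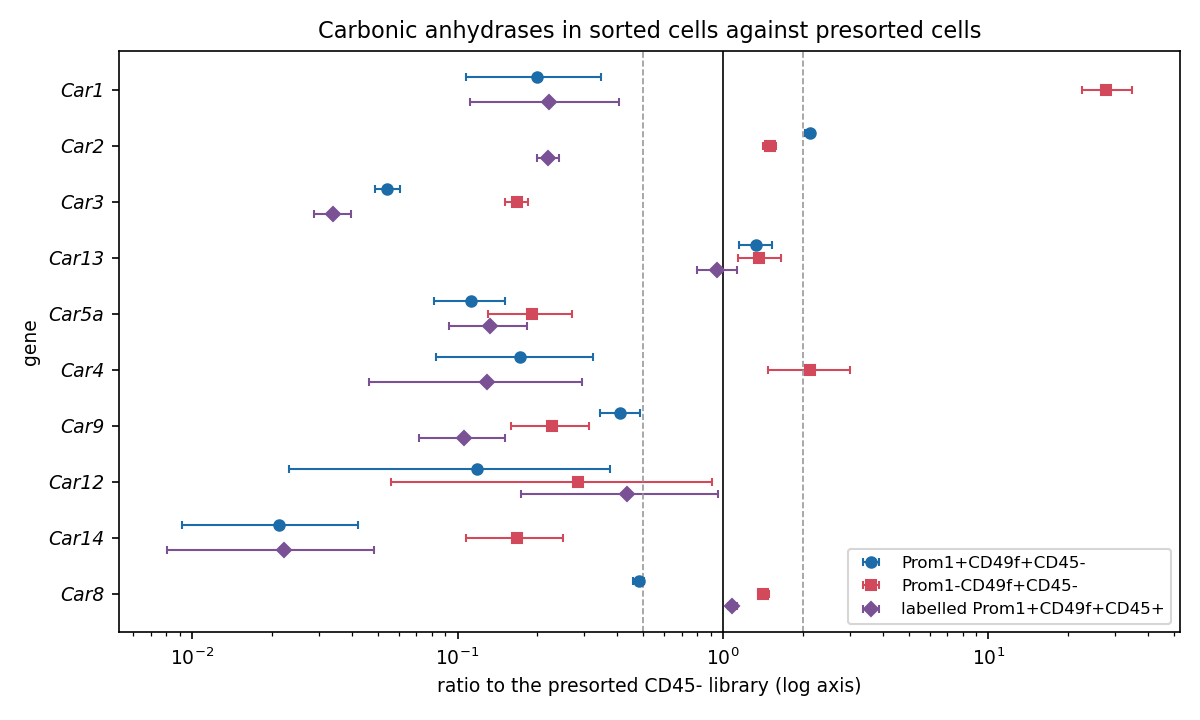
Ratio of each sorted library to the presorted CD45- library (log axis) for the 10 genes, with exact 95% conditional binomial intervals; dashed lines mark 2-fold. Car3, Car5a, Car9 and Car14 lie left of the lower line in all 3 sorted libraries, Car1 lies at 27.7 in the R5 library only, and Car13 stays between the lines.

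In the 2 comparisons with the library labelled R8 on the other side, R6 cells had Car2 and Car9 called higher and Car8 called lower, where 25.6% of genes were called, 12.5% higher and 13.1% lower. Set against R5 cells, the library labelled R8 had 0 called higher and 5 lower (Car1, Car2, Car3, Car4 and Car14), where 30.7% of genes were called, 17.7% higher and 13.0% lower.

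Bicarbonate and chloride transport genes (22 listed, 21 compared) included several that work with Car2 in duct secretion, such as Cftr, Ano1 and Slc4a2. Between R6 and R5 cells, 7 of 21 were called higher (Slc4a2, Slc4a3, Slc4a4, Cftr, Ano1, Clcn2 and Clcn3) and 2 lower (Aqp1 and Aqp8), against 15.5% and 12.7% of all genes, with a median log2 ratio of 1.38 against 0.29 over all genes. Ano1, a calcium-activated chloride channel, was at 188 scaled CPM in R6 cells, 25.3 in R5 cells, 4.91 in the library labelled R8 and 47.0 in presorted cells. Cftr, the cAMP-gated chloride channel of the duct, was at 36.0, 3.96, 1.69 and 5.33. Slc4a4, a sodium bicarbonate cotransporter, was at 83.5, 13.8, 4.07 and 48.2. These transporters thus differed more between the R6 and R5 libraries than Car2 did: the ratio was 7.44 (6.68 to 8.29) for Ano1, 9.10 (6.96 to 12.1) for Cftr and 6.06 (5.24 to 7.05) for Slc4a4, against 1.41 (1.34 to 1.49) for Car2. Slc4a2, the anion exchanger of the apical duct membrane, was at 58.3, 21.6, 34.6 and 58.2, level between R6 and presorted cells with a ratio of 1.00 (0.945 to 1.06). Aqp1, a water channel of ducts and of endothelium, was at 15.4 in R6 cells, against 714 in R5 cells, 2487 in the library labelled R8 and 1928 in presorted cells. Against presorted cells, 7 of 21 were called higher and 7 lower in R6 cells (27.6% and 15.6% of all genes), and 1 higher and 9 lower in R5 cells (9.77% and 14.1%). Of the 7 higher in R6, Slc26a4 and Slc26a7, at 0.321 and 0.700 scaled CPM, were under percentile 95 of the chemosensory genes.

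**Figure D4:**
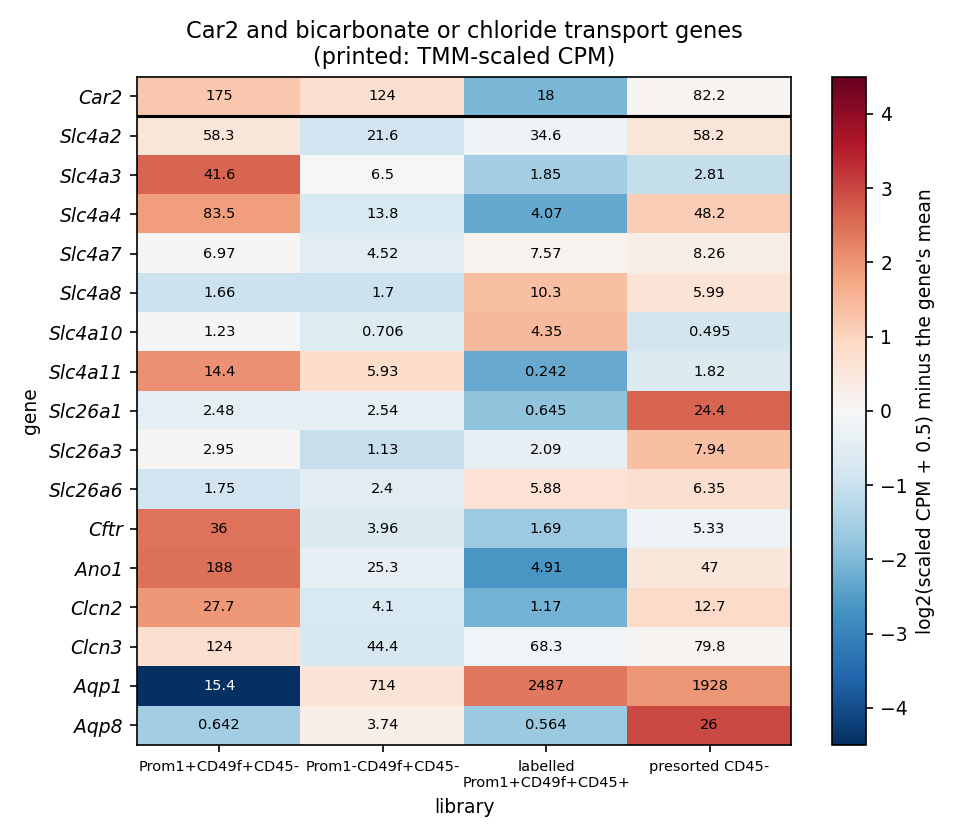
Levels of Car2 and of the 16 bicarbonate and chloride transport genes with at least 100 counts in a library; printed values are TMM-scaled CPM and colour is log2(scaled CPM + 0.5) minus the mean of the gene over the 4 libraries. Ano1, Cftr, Slc4a3 and Slc4a4 are highest in the first column (R6), Aqp1 is lowest there at 15.4, and Car2 is highest in the R6 and R5 columns.

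The other genes of the family (8 listed) included enzymes and forms without activity, and 7 had at least 10 counts in a library. Against presorted cells, 2 of 7 were called higher and 0 lower in R6 cells (27.6% and 15.6% of all genes). In R5 cells 2 and 0 were called (9.77% and 14.1%), and in the library labelled R8 3 and 0 (23.8% and 12.1%). Car7, a cytosolic enzyme known from brain and muscle, was at 46.5 scaled CPM in R5 cells and at 4.52, 3.34 and 4.48 in the R6, labelled R8 and presorted libraries. It was 10.4-fold higher (8.84 to 12.2) in R5 than in presorted cells, so that Car7, like Car1, was highest in that library. Ptprg, a receptor phosphatase with a carbonic anhydrase-like domain, was at 72.4, 53.1, 63.0 and 65.8 in the order R6, R5, labelled R8 and presorted. Car11, a form without activity, was at 11.4, 13.3, 14.7 and 8.53, and neither was called in any of the 6 comparisons. Car10 and Ptprz1 were called higher than presorted in R6, 11.9-fold (5.43 to 30.7) and 7.95-fold (4.58 to 14.8). In the library labelled R8 they were 18.2-fold (8.37 to 46.8) and 8.71-fold (4.95 to 16.4) higher, also called. Car10 was at 1.87 scaled CPM in R6 and 2.86 in the library labelled R8, and Ptprz1 at 2.68 and 2.94. These levels were above percentile 95 of the chemosensory genes in scaled CPM, 0.846 and 1.09. Per kilobase, both genes were under it in these libraries, where it was 0.436 and 0.553.

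Protons made by carbonic anhydrases leave the cell through sodium-proton exchangers, lactate carriers and proton pumps. Of 17 such genes listed, 16 were compared, and in R6 cells 1 was called higher than in presorted cells and 8 lower (27.6% and 15.6% of all genes), in R5 cells 0 and 6 (9.77% and 14.1%), and in the library labelled R8 1 and 6 (23.8% and 12.1%). The 1 called higher in R6, Atp12a, had 17 counts there, 0.496 scaled CPM, under percentile 95 of the chemosensory genes. Bsg, the basigin partner of the lactate carriers, was at 927 scaled CPM in R6, 830 in R5, 278 in the library labelled R8 and 733 in presorted cells. Like Car2 it was lowest in the library labelled R8, 2.63-fold below presorted cells (2.56 to 2.70), but R6 and presorted cells differed by 1.27-fold (1.25 to 1.29), not called. Slc9a3r2, a scaffold protein of sodium-proton exchangers, was lowest in R6, at 69.7 against 685 in R5, 516 in the library labelled R8 and 432 in presorted cells.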

How the data were processed

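RNA was measured in 4 libraries of mouse liver cells, 1 per population. The authors deposited estimated counts per gene, 50.5% to 60.5% of them whole numbers in each library, and normalized values, which are CPM with 1 added to every value. TopHat2, Partek and mm10 are named in the submitters' processing notes, while the settings of the counting were not stated there. The series title names Quant-seq while the labels' protocols name a stranded mRNA kit, which was not resolved, and amplification ran for 12 to 14 cycles at low input and 6 to 10 at higher input, with no assignment to libraries. The column named only CD45 was taken as the presorted cells, the remaining population of the design.

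Estimated counts were rounded and scaled by TMM (edgeR 4.0.16, R 4.3.3) over the 21640 genes that reached 10 counts somewhere. All 10 carbonic anhydrases passed that minimum, Car12 through the presorted library alone. Intervals were exact 95% intervals from SciPy 1.17.1, and a gene with 0 counts was set against a floor of 3 counts. The comparison was tested on simulated counts. Genes were placed with GENCODE vM21, which gave 40254 of the 41128 identifiers a symbol. From each of the 15 gene lists, up to 6 members with the highest mean level, and members that show a split of direction, were named. Cftr, Krt7, Krt19, Slc4a1, Klf1, Vwf, Slc26a4, Slc26a7, Atp12a, Mccc2, Adipoq, Plin1 and Ckm fall outside that rule and were named after their values were seen. For each carbonic anhydrase with at least 100 counts in a library, the 3 genes with the nearest profile were found on log2(scaled CPM + 0.5), a description over 4 libraries with no test. The members and lists were chosen with earlier results of these data known. The alternatives were DESeq2 1.42.0 size factors, summed counts, the authors' normalized values, other minimums, a 4-fold threshold and removal of a length trend. TMM over all genes and TMM without the library labelled R8 were added after the data were seen. Leaving out that library left every scaling ratio among the other 3 as it was, so it says nothing about stability.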

Additional observations from a re-analysis of the deposited data

How the results depend on the processing

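No called ratio of a carbonic anhydrase changed direction under any alternative run. No paired analysis was possible because each population had 1 library, and for the same reason no library could be left out of a group. With a 4-fold threshold the number of the 10 genes called fell from 5 to 2 (Car1 and Car4) for R6 against R5, from 8 to 3 (Car3, Car5a and Car14) for R6 against presorted, from 5 to 3 (Car1, Car3 and Car14) for R5 against presorted, and from 3 to 1 (Car2) for R6 against the library labelled R8. Over all genes that threshold called 2181, 5018, 1555, 2983, 4981 and 1888 genes, against 6107, 9341, 5171, 5541, 7769 and 6644 at 2-fold. The order is these 4 comparisons, then the library labelled R8 against presorted and against R5 cells. The authors' normalized values, with no interval, called 11609 genes for R6 against R5, 10804 for R5 against presorted, 9426 for R6 against labelled R8 and 12390 for labelled R8 against R5. A minimum of 50 counts gave 6214 genes for R6 and 4277 for labelled R8, each against presorted. Of the calls, 54.8% were higher in R6 against R5, compared with 66.9% with summed counts as the scale, and 40.9% in R5 against presorted, compared with 52.5%. In labelled R8 against R5, 57.8% were higher, compared with 46.0% with DESeq2 size factors. With the length trend removed the share was 42.3% in R6 against R5, 42.0% in labelled R8 against R5, and 54.6% in labelled R8 against presorted, where it was 66.3% before. With the authors' values it was 65.6% in R5 against presorted, and 35.5% in R6 against labelled R8, where it was 48.9% before. The median log2 ratio of all genes in R6 against presorted was 0.20 with TMM and 0.62 with summed counts, and in labelled R8 against presorted 0.11 and 0.45. Also, the call of Car1 in the library labelled R8 against presorted was lost with summed counts. The cause of these shifts was not tested. Per-kilobase order within a library changed for 10 of 40 ranks with the longest transcript as length. Low depth limits Car4, Car12 and Car14, with 3 to 11 counts in the libraries where they were lowest.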
